A study of Mus musculus with 6 samples.

Results

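The Gimap genes encode the GTPases of immunity-associated proteins, a family of small GTP-binding proteins made mainly in lymphocytes. Here the family is 8 mouse genes, Gimap1, Gimap3, Gimap4, Gimap5, Gimap6, Gimap7, Gimap8 and Gimap9, found by gene name among 47643 annotated gene IDs. All 8 matched 1 ID each, and all 8 were among the 12113 genes that averaged 1 FPKM or more (fragments per kilobase of transcript, a level corrected for library size). The family was noticed because its genes were higher with PGE2, so it was selected on the comparison described below. Differences of the 8 genes between the groups are therefore a description, with no test.

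GIMAP proteins sit on intracellular membranes, among them those of lysosomes, mitochondria and the endoplasmic reticulum. They are best known for setting how long lymphocytes live, and mice or rats that lack single members lose naive T cells or B cells. They share a GTP-binding fold with septins and with the interferon-inducible guanylate-binding proteins, and several members form dimers through that fold.

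The libraries came from induced regulatory T cells (iTreg) of C57BL/6 mice with the Foxp3-DTR/EGFP allele, which puts a diphtheria toxin receptor and a green fluorescent reporter under control of the Foxp3 locus. Splenic CD4+ T cells were skewed to iTreg for 2 days with anti-CD3, anti-CD28 and TGF-β, then given PGE2 or vehicle, and Foxp3+ cells were sorted on the reporter. The PGE2 group (3 libraries) received 100 nM prostaglandin E2 for 6 h, and the Vehicle group (3 libraries) received DMSO for the same time. Both groups share the allele, the culture and the sort, so cells at rest and cells without activation were not compared. Whether the replicates are separate animals or separate cultures is not in the labels. The p-values therefore cover the spread between these libraries alone, which may be technical.

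The deposited tables hold no counts, so the depth in reads is unknown. Coverage divided by FPKM, a constant of each library that scales with depth, was 4.542 to 5.446 in PGE2 libraries and 3.996 to 5.121 in Vehicle libraries, and was lowest in replicate 3 of both groups. T cell markers were present, with Cd3e, a chain of the T cell receptor complex, at 154 ± 6.62 FPKM with PGE2 and 146 ± 1.90 with Vehicle (SD, n = 3 each). Foxp3, the factor that defines regulatory T cells, was at 115 ± 22.5 FPKM with PGE2 and 92.1 ± 14.4 with Vehicle (limma adjusted p = 0.51), and Il2ra, the IL-2 receptor alpha chain, at 639.8 ± 27.6 FPKM with PGE2 and 691 ± 59.6 with Vehicle (adjusted p = 0.75). Summed markers of B cells stayed at 3.55 to 4.33 FPKM with PGE2 and 3.86 to 5.70 with Vehicle, and those of myeloid cells at 0.121 to 0.453 FPKM with PGE2 and 0.124 to 0.972 with Vehicle, with S100a8 listed at 0 in all 6 libraries. Erythroid and platelet markers summed to 0.625 to 1.25 FPKM with PGE2 and 0.736 to 0.96 with Vehicle, and Pf4 and Ppbp were listed at 0.

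The 8 genes lie side by side on chromosome 6 of mm10, from 48647234 to 48770851, a stretch of 124 kb with 6 genes on the plus strand and 2, Gimap6 and Gimap3, on the minus strand. All are annotated as protein coding. Promoters of 4 members are printed because these hold the highest levels (Gimap4 and Gimap3) and the largest differences (Gimap7 and Gimap6) of the family. Each is the 150 bases before the RefSeq start (GRCm38.p6), 5′ to 3′ on the gene's own strand. Capitals mark AGGAAG or its reverse complement CTTCCT, a core bound by ETS factors, and TGTGGT or its reverse complement ACCACA, a core bound by RUNX factors.
Gimap4, chr6:48684428-48684577, plus strand: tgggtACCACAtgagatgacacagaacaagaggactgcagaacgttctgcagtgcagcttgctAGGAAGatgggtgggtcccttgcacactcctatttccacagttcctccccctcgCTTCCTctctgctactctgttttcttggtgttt
Gimap7, chr6:48718471-48718620, plus strand: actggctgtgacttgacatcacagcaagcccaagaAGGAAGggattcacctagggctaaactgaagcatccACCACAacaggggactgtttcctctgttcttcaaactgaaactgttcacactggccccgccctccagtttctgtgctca
Gimap3, chr6:48770852-48771001, minus strand: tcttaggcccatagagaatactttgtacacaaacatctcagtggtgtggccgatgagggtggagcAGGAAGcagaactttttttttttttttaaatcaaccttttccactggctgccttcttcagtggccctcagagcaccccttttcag
Gimap6, chr6:48708245-48708394, minus strand: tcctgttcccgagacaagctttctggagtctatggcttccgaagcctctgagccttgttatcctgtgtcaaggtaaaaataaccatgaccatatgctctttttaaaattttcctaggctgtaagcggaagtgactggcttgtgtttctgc
By these exact letters the Gimap4 stretch holds both cores, with the ETS letters at 2 places, and the Gimap7 stretch holds 1 of each. The Gimap3 stretch holds the ETS letters alone, and the Gimap6 stretch holds neither string. It does hold GGAAG (in gcggaagtg), the ETS letters without their first base, and the reverse complement CTTCC (in ggcttccga). Other forms of ETS or RUNX sites were not searched, so a stretch without capitals may still hold one.

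All 8 Gimap genes were higher in every PGE2 library than in every Vehicle library. Such a separation was found for 7.81% of all tested genes, and the opposite one, with PGE2 below Vehicle, for 11.9%. The log2 change, on the log2(FPKM + 1) scale and with PGE2 minus Vehicle, ran over the family from 0.29 to 0.89 with a median of 0.64, while the median of all tested genes was -0.03. Since the members were chosen on this contrast, nothing is read from these counts. In bulk RNA, more cells that express a gene and more RNA per cell cannot be told apart.

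**Figure D1:**
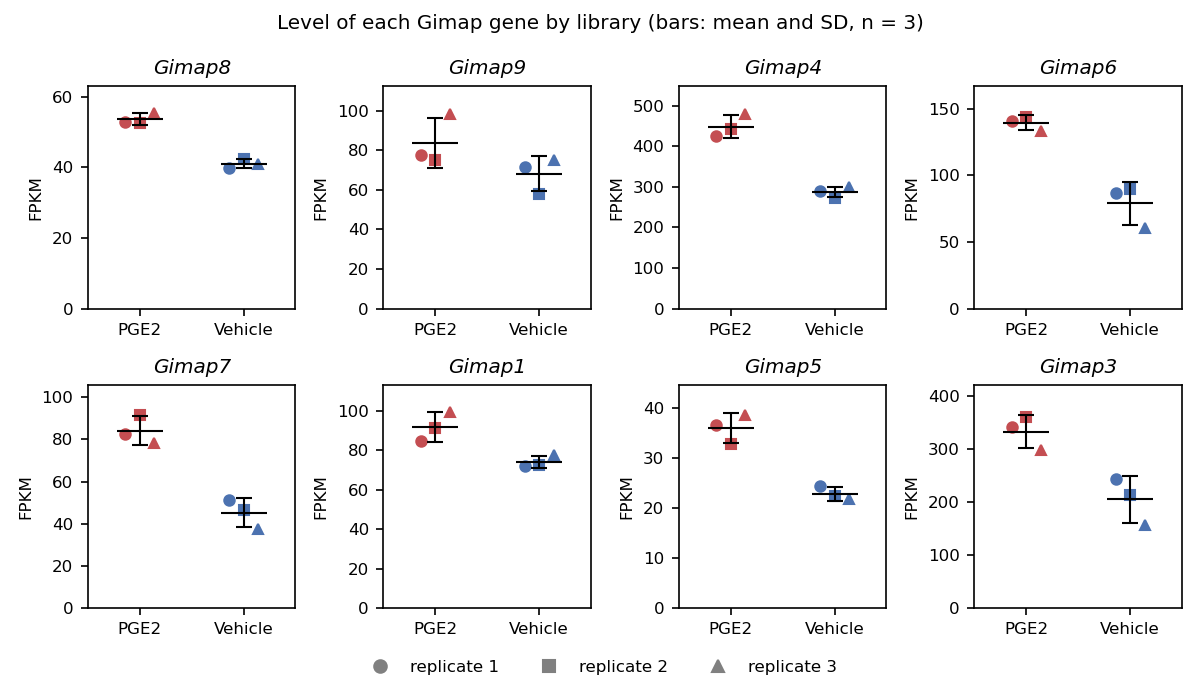
FPKM of each Gimap gene by library, with PGE2 on the left and Vehicle on the right of each panel, markers for replicates 1 to 3, and bars for the mean and SD (n = 3). In all 8 panels the 3 PGE2 points lie above the 3 Vehicle points, by the least margin for Gimap9.

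Gimap5, Gimap3 and Gimap1 are among the members tied to lymphocyte survival. Gimap5 (ENSMUSG00000043505.8, 48746197 to 48754210, plus strand), whose loss causes lymphopenia in mice and rats, was at 36.6, 32.8 and 38.6 FPKM in PGE2 replicates 1, 2 and 3 and at 24.3, 22.3 and 21.8 FPKM in Vehicle replicates 1, 2 and 3. The groups did not overlap, and the lowest PGE2 library stood well above the highest Vehicle library. The log2 change was 0.63 (SE 0.09).

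Gimap3 (ENSMUSG00000039264.9, 48764464 to 48770851, minus strand), a close relative of Gimap5 that acts with it in T cell survival in mice, was at 342, 359.7 and 298 FPKM in PGE2 replicates 1 to 3 and at 244, 213 and 157 FPKM in Vehicle replicates 1 to 3. Replicate 3 was the lowest of both groups, and the groups did not overlap. The log2 change was 0.72 (SE 0.17). Gimap1 (ENSMUSG00000090019.5, 48739054 to 48743795, plus strand), needed in mice for mature T and B cells, was at 84.7, 91.2 and 99.5 FPKM in PGE2 replicates 1 to 3 and at 72.1, 72.5 and 77.5 FPKM in Vehicle replicates 1 to 3. Here replicate 3 was the highest of both groups. The groups did not overlap, and the log2 change was 0.30 (SE 0.09), the second smallest of the family.

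Gimap4 (ENSMUSG00000054435.16, 48684549 to 48692060, plus strand) speeds the death of T cells in mice, in contrast to the members above. It was at 424, 442 and 479.5 FPKM in PGE2 replicates 1 to 3 and at 291, 273 and 299 FPKM in Vehicle replicates 1 to 3. It was the most abundant member in each of the 6 libraries, its groups were far apart for their spread, and the log2 change was 0.64 (SE 0.09).

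Gimap6 (ENSMUSG00000047867.11, 48701582 to 48708225, minus strand) binds GABARAP-type proteins of autophagy. It was at 141, 144 and 133 FPKM in PGE2 replicates 1 to 3 and at 86.9, 89.5 and 60.6 FPKM in Vehicle replicates 1 to 3. The PGE2 libraries lay close together, whereas Vehicle replicate 3 was well below the other 2 Vehicle libraries. The log2 change was 0.83 (SE 0.15), and it was 0.65 without Vehicle replicate 3.

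Gimap7 (ENSMUSG00000043931.10, 48718621 to 48724636, plus strand), whose human counterpart hydrolyses GTP as a dimer, was at 82.5, 91.7 and 78.5 FPKM in PGE2 replicates 1 to 3 and at 51.1, 46.6 and 37.6 FPKM in Vehicle replicates 1 to 3. It had the largest difference of the family, with a log2 change of 0.89 (SE 0.13), and 0.495% of tested genes had a larger one. Gimap8 (ENSMUSG00000064262.7, 48647234 to 48660875, plus strand), the largest protein of the family with more than 1 GTP-binding domain, was at 52.7, 52.5 and 55.5 FPKM in PGE2 replicates 1 to 3 and at 39.9, 42.3 and 41.0 FPKM in Vehicle replicates 1 to 3. Its replicates were the tightest of the family relative to their mean in both groups, the groups did not overlap, and the log2 change was 0.38 (SE 0.07).

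Gimap9 (ENSMUSG00000051124.6, 48676129 to 48679114, plus strand) was at 77.5, 75.1 and 98.4 FPKM in PGE2 replicates 1 to 3 and at 71.6, 58.1 and 74.9 FPKM in Vehicle replicates 1 to 3. Its groups nearly touched, since PGE2 replicate 2 stood just above Vehicle replicate 3. The log2 change of 0.29 (SE 0.14) was the smallest of the family, and 6.44% of tested genes had a larger one. Leaving out 1 library moved it between 0.17 and 0.36.

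Under limma with adjustment over all tested genes, 3 of the 8 members were past the threshold of 0.05 as rises, Gimap4, Gimap5 and Gimap7, where 0.57% of tested genes rose and 0.239% fell. With the replicate number as a block the members past it were 6, with Gimap3, Gimap6 and Gimap8 added, where 1.77% of tested genes rose and 1.49% fell. No member was past the threshold when PGE2 replicate 1, 2 or 3 or Vehicle replicate 1 or 2 was left out, and Gimap6 and Gimap7 were when Vehicle replicate 3 was left out. All 8 log2 changes were above 0 under each of the 11 alternatives, and all 24 differences between same-numbered PGE2 and Vehicle libraries were above 0. Since every PGE2 library was above every Vehicle library, these signs were fixed in advance and add no support. Only with coverage and with median-ratio scaling could a sign have differed. These counts, too, describe genes picked for being higher.

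The order of the members by level does not use the contrast. In PGE2 libraries the means in FPKM ran Gimap4 449 ± 28.1, Gimap3 333 ± 31.9, Gimap6 139 ± 5.39, Gimap1 91.8 ± 7.41, Gimap7 84.2 ± 6.77, Gimap9 83.7 ± 12.8, Gimap8 53.6 ± 1.64 and Gimap5 36.0 ± 2.96 (SD, n = 3). In Vehicle libraries they ran Gimap4 288 ± 13.5, Gimap3 205 ± 43.8, Gimap6 79.0 ± 16.003, Gimap1 74.0 ± 2.99, Gimap9 68.2 ± 8.95, Gimap7 45.1 ± 6.92, Gimap8 41.1 ± 1.18 and Gimap5 22.8 ± 1.32 (SD, n = 3). Gimap4 and Gimap3 stood apart at the top and Gimap5 at the bottom in both groups. Neighbours whose ranges overlapped were Gimap1 with Gimap7 and Gimap7 with Gimap9 in PGE2 libraries, and Gimap6 with Gimap1, Gimap1 with Gimap9 and Gimap7 with Gimap8 in Vehicle libraries. Over all 6 libraries Gimap4 was the 171st most abundant of the tested genes and Gimap5 the 2566th, with 1.40% and 21.2% of tested genes at a higher mean FPKM.

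Read coverage, the mean depth over the gene, kept the means of Gimap4 and Gimap3 at the top and that of Gimap5 at the bottom. The order between them changed, and Gimap9 stood above Gimap1 in both groups. In PGE2 libraries Gimap9 also stood above Gimap7, and Gimap7 and Gimap8 above Gimap1. In Vehicle libraries Gimap9 stood above Gimap6 and Gimap8 above Gimap7, and the range of Gimap5 overlapped that of Gimap7. In coverage Gimap9 was at 377 ± 29.7 with PGE2 and 283 ± 29.1 with Vehicle, and Gimap1 at 226 ± 6.20 with PGE2 and 169.7 ± 24.3 with Vehicle (SD, n = 3). On coverage scaled to depth the log2 changes ran from 0.31 for Gimap9 and Gimap1 to 0.88 for Gimap7, and that of Gimap8 was 0.44.

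The 8 genes together summed to 1241, 1289 and 1281 FPKM in PGE2 replicates 1 to 3 and to 881, 817 and 769.6 FPKM in Vehicle replicates 1 to 3, a ratio of means of 1.54. Gimap4 and Gimap3 made up 61.5% of the sum with PGE2 and 59.8% with Vehicle. Of the single members, Gimap7 took 6.63% ± 0.494 of it with PGE2 and 5.46% ± 0.508 with Vehicle, Gimap1 took 7.22% ± 0.488 with PGE2 and 9.05% ± 0.952 with Vehicle, and Gimap8 took 4.22% ± 0.131 with PGE2 and 5.01% ± 0.423 with Vehicle (SD, n = 3 each). The groups did not overlap for these 3 shares. The shares of the other 5 members overlapped.

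Within a group the members did not vary together. On the log2(FPKM + 1) scale replicate 3 was below its group mean for Gimap3, Gimap6 and Gimap7, by 0.16, 0.06 and 0.10 with PGE2 and by 0.35, 0.36 and 0.25 with Vehicle. The same replicate was above its group mean for Gimap9, Gimap4 and Gimap1, by 0.24, 0.10 and 0.12 with PGE2 and by 0.14, 0.06 and 0.07 with Vehicle. For Gimap5 and Gimap8 the deviation of replicate 3 had opposite signs with PGE2 (0.10 and 0.05) and with Vehicle (-0.06 and -0.00). Replicate 3 also had the lowest coverage per FPKM of each group, 4.542 with PGE2 and 3.996 with Vehicle, and the part of depth in this spread was not tested. Gimap7 and Gimap1, which lie next to each other, deviated in opposite directions in replicate 3. Both fall on 1 locus assembled from the reads. In Vehicle replicates 1 to 3 Gimap7 was at 31.4%, 30.3% and 26.3% of that locus and Gimap1 at 44.3%, 47.2% and 54.2%. In PGE2 replicates 1 to 3 Gimap7 was at 37.6%, 39.6% and 32.3% and Gimap1 at 38.6%, 39.4% and 41.0%. The part of the division of reads between them in these deviations was not tested.

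**Figure D2:**
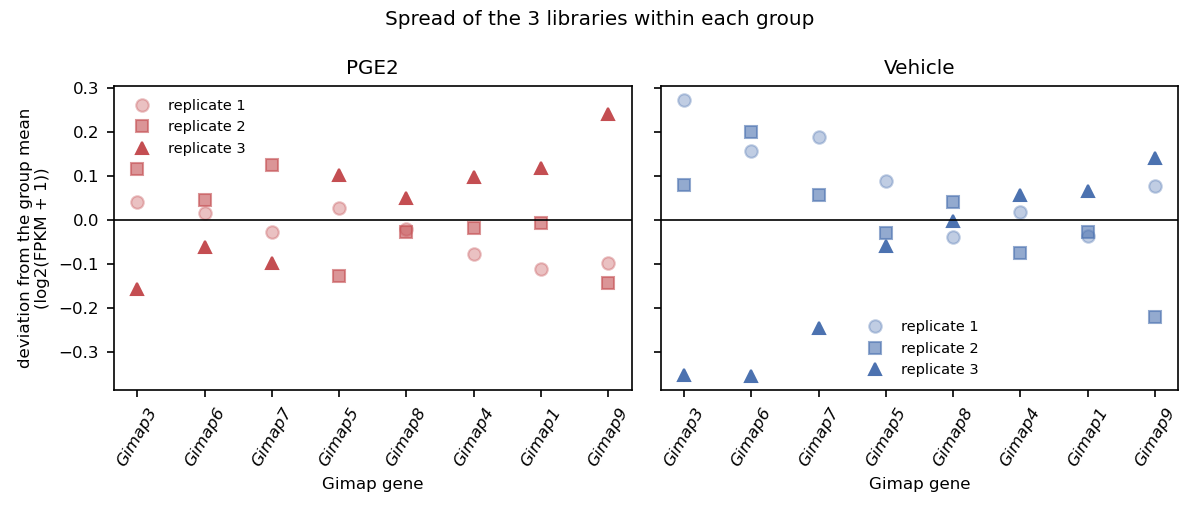
Deviation of each library from its group mean on the log2(FPKM + 1) scale, by Gimap gene, with PGE2 in the left panel and Vehicle in the right and markers for replicates 1 to 3. Replicate 3 is the lowest of both groups for Gimap3, Gimap6 and Gimap7 and the highest of both for Gimap9, Gimap4 and Gimap1.

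The deposited tables also hold loci assembled from the reads, which give a second reading of the same libraries. Where more than 1 locus on its strand overlapped a gene, that of the highest FPKM was taken. Gimap8, Gimap9, Gimap4, Gimap6 and Gimap3 each had a locus that overlapped no other member on its strand. Over the libraries the gene stood at 78.0% to 105.6% of its locus for Gimap8, 86.5% to 105.9% for Gimap3 and 89.1% to 99.5% for Gimap9. It was at 99.3% to 100.6% for Gimap4 and 99.0% to 100.0% for Gimap6. The log2 change of the locus was the difference of the group means of log2(FPKM + 1), PGE2 minus Vehicle. It was 0.84 for Gimap6, 0.72 for Gimap3, 0.63 for Gimap4, 0.35 for Gimap8 and 0.30 for Gimap9. The locus of Gimap9 overlapped between the groups, at 80.3, 76.2 and 110.4 FPKM in PGE2 replicates 1 to 3 and 71.97, 61.01 and 81.13 FPKM in Vehicle replicates 1 to 3. Gimap7, Gimap1 and Gimap5 fell on 1 shared plus-strand locus, with 219, 232 and 243 FPKM in PGE2 replicates 1 to 3 and 163, 154 and 143 FPKM in Vehicle replicates 1 to 3, without overlap and with a ratio of means of 1.51. How the authors' program divided the reads of that locus among the 3 genes is not given in the sources used here.

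Shared sequence limits 4 of the members. In GENCODE M21, Gm28053, a readthrough gene on the same strand, shares 81 exonic bases with Gimap7, 198 with Gimap1 and 153 with Gimap5. Gimap1os, the antisense partner of Gimap1, overlaps 1107 exonic bases of Gimap1, 36.0% of its exons, and 35.5% of the 50-base stretches of Gimap1 transcripts occur, on either strand, in some other gene. The library kit marks strand, but whether the counting used it is not given, so reads of Gimap1 and Gimap1os may be mixed. Gimap3 and Gimap5 have 190 such stretches in common, 7.5% of those of Gimap3 and 4.5% of those of Gimap5. For Gimap4, Gimap8 and Gimap9 none was shared, and for Gimap6 0.2% were.

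Genes that lie among or beside the Gimap genes were not used to choose them. Inside the cluster 4 other genes were tested. By limma 0 rose and 0 fell, where 0.57% of all tested genes rose and 0.239% fell. Of the 4, 2 had an unadjusted p under 0.05. All 4 had a higher mean with PGE2, with a median log2 change of 0.42. The share of all tested genes with an unadjusted p under 0.05 was not worked out. Such counts, here and below, are therefore not read as a result. The same goes for counts of genes with a higher mean. Gimap1os was at 13.3, 13.0 and 17.5 FPKM in PGE2 replicates 1 to 3 and at 7.79, 7.60 and 9.44 FPKM in Vehicle replicates 1 to 3, without overlap. It was 0.74 higher on the log2 scale (SE 0.14), short of the threshold by limma (adjusted p = 0.067). The replicate block brought it past the threshold (adjusted p = 0.01), and the alternatives gave adjusted p between 0.01 and 0.25. Since it shares exonic bases with Gimap1, its value is uncertain. The remaining 3, named after their values were seen, were the noncoding RNA 4833403J16Rik (log2 change 0.48, adjusted p = 0.2), Gm28053 (0.35, adjusted p = 0.56) and the noncoding RNA Gm44226 (0.27, adjusted p = 0.48). The noncoding RNAs 4833403J16Rik and Gm44226 overlap each other on opposite strands by 649 exonic bases. Gm28053 shares 20.0% of its exonic bases with Gimap1, 15.5% with Gimap5 and 8.2% with Gimap7. The 4 genes are therefore not separate readings, and some of their reads may be those of members or of one another.

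Outside the cluster, changes lay on both sides of 0. Within 1 Mb of either end 29 genes were tested. Of them 0 rose and 0 fell by limma with or without the replicate block, and 3 had an unadjusted p under 0.05. Over all tested genes 0.57% rose and 0.239% fell, and 1.77% and 1.49% with the block. At these shares 0 calls among so few genes are not read as a result. Of these 29, 11 had a higher mean with PGE2, and the median log2 change was -0.08 with a range of -0.62 to 0.43. The nearest tested genes before the cluster were Zfp775, a zinc finger gene 24.0 kb away, with a log2 change of -0.08 (limma adjusted p = 0.86), and 2 gene models that overlap it, RP24-124B23.14 (-0.19, adjusted p = 0.57) and RP24-124B23.17 (0.04, adjusted p = 0.94). The nearest after it were Tmem176b, a membrane protein gene 63.0 kb away (-0.22, adjusted p = 0.52), its neighbour Tmem176a (-0.20, adjusted p = 0.64), and Malsu1, a mitochondrial ribosome factor 303 kb away (0.03, adjusted p = 0.94). All 6 overlapped between the groups. The contrast between the members and their neighbours was not tested, since the members were chosen for their direction.

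**Figure D3:**
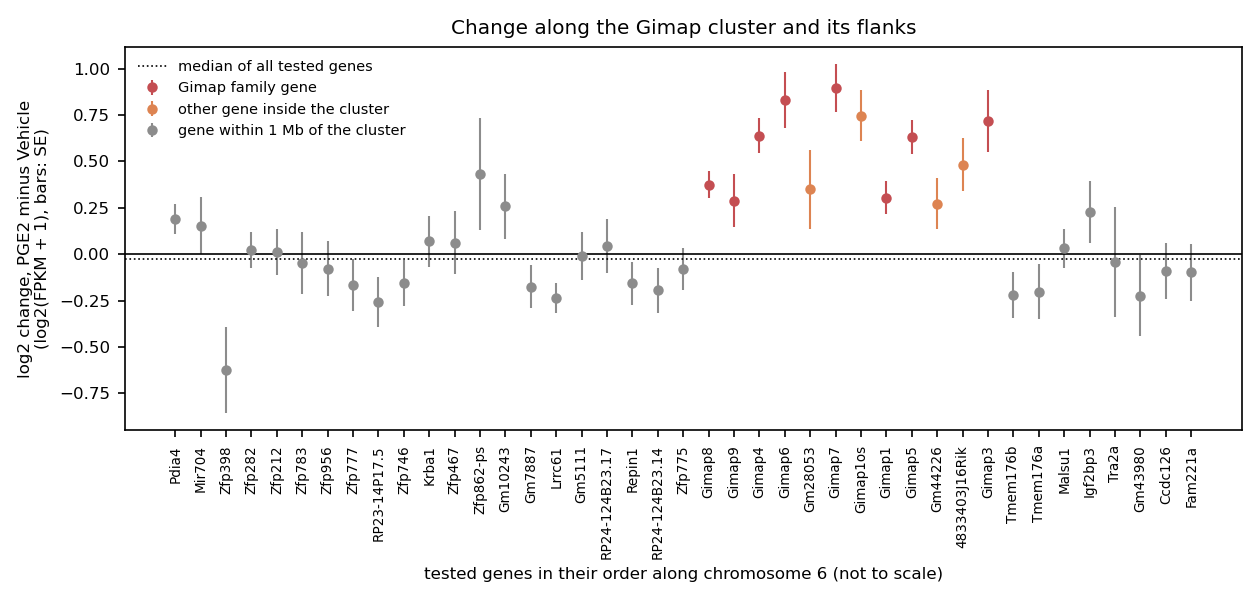
Log2 change (PGE2 minus Vehicle, log2(FPKM + 1)) with its SE for tested genes in their order along chromosome 6, not to scale, for Gimap genes, other genes inside the cluster and genes within 1 Mb of it. The 8 Gimap genes and the 4 other genes inside lie between 0.27 and 0.89, and the flanking genes between -0.62 and 0.43 around a median of -0.08.

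Genes for proteins that GIMAP proteins are known to bind or act on gave no calls. Over all tested genes 0.57% rose and 0.239% fell by limma, and 1.77% and 1.49% with the block. At these shares 0 calls in a short list are not read as a result. Of 16 tested genes for BCL-2 family members, GSK3B, GABARAP and LC3 proteins and ceramide synthases, 0 rose and 0 fell by limma, with or without the block; before adjustment 3 had a p under 0.05, 2 of them higher and 1 lower with PGE2. The median log2 change was 0.02, beside -0.03 over all tested genes. The most abundant were Bax, a promoter of apoptosis, at 123 ± 7.47 FPKM with PGE2 and 161 ± 19.4 with Vehicle (SD, n = 3 each; log2 change -0.37, adjusted p = 0.2), and Gabarap, an autophagy protein, at 118 ± 14.6 FPKM with PGE2 and 100.7 ± 13.9 with Vehicle (log2 change 0.22, adjusted p = 0.54).

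Among GTPases of related fold, the septins, which build filaments, had 8 tested genes. Of these 0 rose and 0 fell and 0 had an unadjusted p under 0.05 (median log2 change 0.03). Over all tested genes 0.57% rose and 0.239% fell by limma, so 0 calls are not read as a result. Sept1 was at 228 ± 16.1 FPKM with PGE2 and 224 ± 13.9 with Vehicle (adjusted p = 0.94 with limma), and Sept9 at 129 ± 19.0 FPKM with PGE2 and 154 ± 28.2 with Vehicle (adjusted p = 0.59). Of 19 interferon-inducible GTPases 1 rose and 0 fell, beside the same shares, and a single call is not read as a result about the list. Before adjustment 5 had a p under 0.05, all 5 higher with PGE2. A higher mean with PGE2 was found for 15 of the 19, and the median log2 change was 0.21. The shares of all tested genes with an unadjusted p under 0.05 and with a higher mean were not worked out, so these counts are a description. Gbp2, a guanylate-binding protein, rose, at 150.2, 167 and 164 FPKM in PGE2 replicates 1 to 3 and 97.1, 97.6 and 96.6 FPKM in Vehicle replicates 1 to 3, without overlap (log2 change 0.72, SE 0.08, limma adjusted p = 0.012). This call was lost when PGE2 replicate 2 was left out (adjusted p = 0.086), and likewise for Vehicle replicate 1 (adjusted p = 0.06) and Vehicle replicate 2 (adjusted p = 0.078). Iigp1, an immunity-related GTPase, was at 77.5 ± 24.6 FPKM with PGE2 and 49.0 ± 19.5 with Vehicle (adjusted p = 0.4). It passed under the replicate block alone (adjusted p = 0.012), and the alternatives spanned adjusted p of 0.012 to 0.74.

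Gimap transcripts are known to be high in resting T cells, so genes of resting and naive T cells were set beside them. Of 24 tested, 1 rose and 0 fell, with or without the block. Over all tested genes 0.57% rose and 0.239% fell by limma, and 1.77% and 1.49% with the block. A single call is not read as a result about the list. Before adjustment 7 of the 24 had a p under 0.05, 5 of them higher and 2 lower with PGE2, and 16 had a higher mean. The median log2 change was 0.16. For the counts by unadjusted p and by higher mean, too, the shares over all tested genes were not worked out. Il7r, the IL-7 receptor chain that keeps naive and memory T cells alive, was the one that rose, at 24.0, 23.9 and 22.3 FPKM in PGE2 replicates 1 to 3 and 15.5, 16.05 and 15.7 FPKM in Vehicle replicates 1 to 3, without overlap. It was 0.54 higher on the log2 scale (SE 0.08, limma adjusted p = 0.031), a call that was lost whichever of the 6 libraries was left out, at adjusted p of 0.067 to 0.18. A list of 13 genes held the receptor Notch1 and transcription factors active in T cells, among them ETS and RUNX proteins. Foxo1 and Klf2 are on this list and also among the 24 above. Of the 13, 0 rose and 0 fell by limma with or without the block, and 0 had an unadjusted p under 0.05. The median log2 change was -0.02. At the shares given above, 0 calls among 13 are not read as a result. Ets1 was at 159 ± 5.26 FPKM with PGE2 and 161 ± 15.3 with Vehicle (adjusted p = 0.96), and Cbfb, the partner of RUNX proteins, at 68.1 ± 2.85 FPKM with PGE2 and 74.2 ± 15.3 with Vehicle (adjusted p = 0.85).

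**Figure D4:**
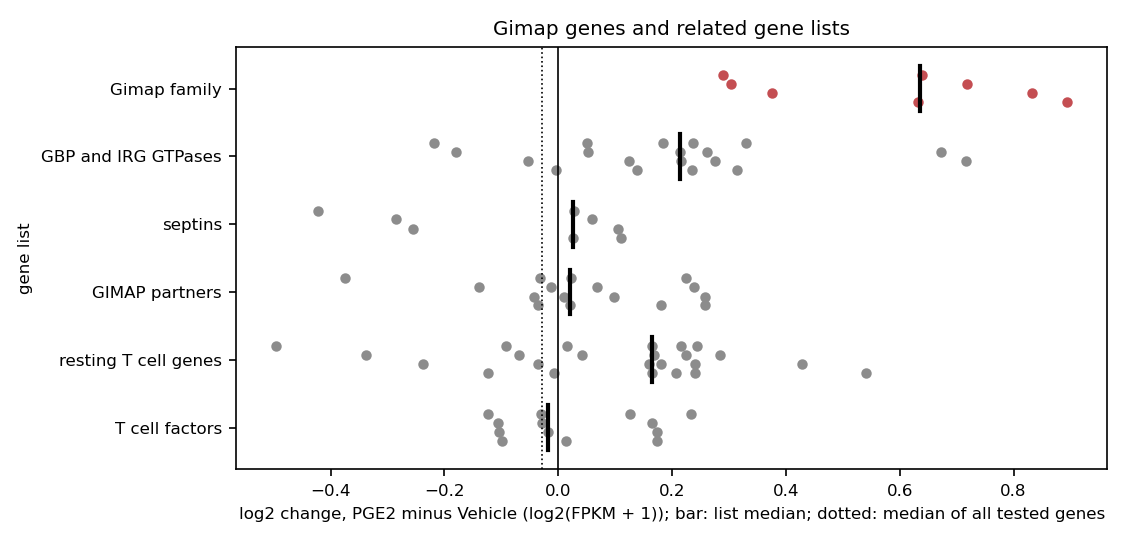
Log2 change (PGE2 minus Vehicle, log2(FPKM + 1)) of the Gimap genes and of 5 related gene lists, 1 point per tested gene, with a bar at the list median and a dotted line at the median of all tested genes, -0.03. The Gimap median is 0.64, and those of the other lists lie between -0.02 and 0.21.

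Markers of the sorted cells and of other cells are given beside the family. The 5 regulatory T cell markers summed to 1786 to 1834 FPKM with PGE2 and 1360.0 to 1449.7 with Vehicle. Over all tested genes 0.57% rose and 0.239% fell by limma, and 1 of these 5 markers rose. This was Ctla4, an inhibitory receptor, at 345 ± 5.93 FPKM with PGE2 and 199 ± 7.14 with Vehicle (SD, n = 3 each; log2 change 0.79, SE 0.08, limma adjusted p = 0.0076); the call was lost without PGE2 replicate 2 (adjusted p = 0.074) and without Vehicle replicate 2 (adjusted p = 0.059). Tnfrsf18, the costimulatory receptor GITR, held most of the difference in the sum. It was at 678, 688 and 756 FPKM in PGE2 replicates 1 to 3 and at 493, 378 and 365 FPKM in Vehicle replicates 1 to 3, without overlap. Its log2 change of 0.79 (SE 0.14) gave a limma adjusted p of 0.056, and 0.033 under the replicate block, within 0.033 to 0.23 across the alternatives. It was also past the threshold with coverage (adjusted p = 0.049) and without Vehicle replicate 1 (adjusted p = 0.04). The 10 T cell markers summed to 2548 to 2777 FPKM with PGE2 and 2360 to 2535 with Vehicle. Of them 0 were called, which at those shares is not read as a result. The 6 NK and CD8 T cell markers summed to 8.48 to 11.1 FPKM with PGE2 and 6.24 to 8.06 with Vehicle, with Klrb1c and Ncr1 listed at 0 in all libraries. Klrd1, the NK receptor chain CD94, was at 2.54, 2.26 and 4.50 FPKM in PGE2 replicates 1 to 3 and at 0.961, 0.627 and 2.78 FPKM in Vehicle replicates 1 to 3. Its groups overlapped, replicate 3 was the highest of both, and the PGE2 library was the higher one at each number. Its log2 change of 0.80 (SE 0.34) did not pass by limma (adjusted p = 0.38) and did under the replicate block (adjusted p = 0.033), within 0.033 to 0.74 across the alternatives. Endothelial markers summed to 10.4 to 12.0 FPKM with PGE2 and 9.11 to 10.6 with Vehicle; nearly all of it was Pecam1, which T cells also make, and Emcn was listed at 0. The part of these shifts in the Gimap values was not tested.

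The 5 protein-coding genes whose profile over the 6 libraries was most like the mean Gimap profile were Actg1, Plek, Tex2, Mgarp and Selplg. Likeness was the mean absolute difference of log2(FPKM + 1) values centred on each gene's own mean, and it was 0.0603 for Actg1, 0.0617 for Plek, 0.0629 for Tex2, 0.0644 for Mgarp and 0.0663 for Selplg, against a median of 0.316 over 10039 protein-coding genes. The members themselves lay between 0.0604 for Gimap5 and 0.193 for Gimap9. Each member is part of the mean profile, which lowers its own value, so these are not compared with the values of other genes. Actg1, cytoplasmic gamma-actin, was at 2255 ± 53.9 FPKM with PGE2 and 1409 ± 134 with Vehicle (SD, n = 3 each). Selplg, the selectin ligand PSGL-1 of leukocytes, was at 477 ± 17.4 FPKM with PGE2 and 349 ± 28.4 with Vehicle. Plek, a substrate of protein kinase C, was far lower, at 1.44 ± 0.204 FPKM with PGE2 and 0.683 ± 0.0396 with Vehicle. These 5 were picked for their pattern, so their levels are a description.

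All 8 members had at least 1 RefSeq promoter, 9 in all since Gimap8 has 2 starts, and the 250 bases before each start were searched on both strands for 12 short motifs. The motifs were chosen after these windows had been looked at, so the counts give no test against the shares of all windows. Counts are of members and shares are of single windows, and only the exact letters were searched. The ETS letters AGGAAG were in the promoters of 7 members, all but Gimap6, where 29.5% of 32851 windows of the same length hold them. In Gimap8 they were in 1 of the 2 windows. The RUNX core TGTGGT was in those of Gimap1, Gimap4 and Gimap7, where 14% of windows hold it. In the order of the cluster the ETS match nearest the start began 48 bases before it in Gimap8, 180 in Gimap9, 33 in Gimap4, 115 in Gimap7, 197 in Gimap1, 45 in Gimap5 and 85 in Gimap3.

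Other motifs matched fewer members or were common everywhere. GGGTG, a core bound by KLF factors, was in 5 members (Gimap3, Gimap4, Gimap5, Gimap8 and Gimap9) and in 52.0% of windows. The interferon-gamma-activated site TTCNNNGAA was in Gimap6 and Gimap8 (7.0% of windows), where in Gimap8 it overlaps the ETS match, the E-box CAGGTG in Gimap9 (17.2%), and the FOX core GTAAACA in Gimap3 (3.2%). PGE2 signals through cAMP in T cells, and the cAMP response element TGACGTCA (1.5% of windows), its half-site TGACG, which the full element contains (17.8%), and the NR4A site AAAGGTCA (1.3%) matched 0 members. The AP-1 site TGACTCA (4.5%), the TCF core CTTTGA (13.8%) and the interferon response core GAAANNGAA (7.1%) also matched 0. These matches describe letters in these windows and are no measure of binding.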

How the data were processed

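The data are RNA sequencing of 3 PGE2 and 3 Vehicle libraries, grouped and numbered as their titles give it. The tools named in the submitters' processing notes are Trim Galore and HISAT2, with build mm10. Tool versions, the program behind the gene tables and its use of strand are not given in the sources consulted. Per the file headers, a table holds the position of each gene with its coverage, FPKM and TPM. FPKM values were deposited by the authors already corrected for library size and transcript length. The deposited coverage, a signal, is the mean read depth over a gene. The deposited TPM was handled as a score: the authors' tables list assembled loci and annotated genes together, so that it sums to 1.91 to 1.94 times the loci alone, and it was not used for results.

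Of 47643 annotated IDs, 47224 are in GENCODE M21 and 39106 with the same version. The tables hold no counts, so no counting interval was computed. Coverage over FPKM was within 1% of 1 constant per library for 97.3% to 97.7% of genes with 1 transcript, and genes over 1 FPKM had a median coverage of 27.6 to 36.1. Genes averaging 1 FPKM or more were tested, as log2(FPKM + 1), with limma 3.58.1 in R 4.3.3 (variance trend, no covariate, two-sided, Benjamini-Hochberg over 12113 genes, threshold 0.05), since the values are not counts. This scale understates the change of low genes. The procedure was tested on simulated data. Figures used matplotlib 3.10.9 in Python 3.11.15.

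The members, lists and marker genes were chosen with earlier results of these data known. Named genes are the 8 members, any other gene whose name begins with Gimap, the 3 nearest tested neighbours on each side and any neighbour called, called members of each list or else its 2 most abundant, the 5 genes of most similar profile, and Foxp3, Cd3e and Il2ra; Ctla4, Tnfrsf18, Klrd1 and the other markers, Iigp1 and the remaining genes inside the cluster were named after their values were seen. Promoters are RefSeq's (GRCm38.p6), and the 12 motifs were chosen after the windows had been looked at; a few others were looked at too and are not reported. Protein sequences were not used here.

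Both groups carry replicate numbers 1 to 3 in the titles. Deviations of same-numbered libraries from their group means correlated across genes at 0.227, 0.312 and 0.529, all over 0.1. So did PGE2 replicate 1 with Vehicle replicate 2 (0.271) and PGE2 replicate 2 with Vehicle replicate 1 (0.149). Replicate 3 correlated below 0 with replicates 1 and 2 of the other group. The values set replicate 3 apart and do not settle whether equal numbers are pairs. The main fit is therefore without the block, and the blocked value is given where it changes a call. Alternatives were the replicate block, a pseudocount of 0.1, no filter, coverage in place of FPKM, median-ratio scaling and each library left out.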

Additional observations from a re-analysis of the deposited data

How the results depend on the processing

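All 8 Gimap log2 changes stayed above 0 under each of the 11 alternatives. The sign was fixed in advance by the separation of the groups, except with coverage and with median-ratio scaling. The median over members ran from 0.57 to 0.67, and the log2 change of Gimap8 was 0.44 with coverage. The counts of calls moved more. With the replicate block 215 genes rose and 180 fell, with no filter on low values 33 rose and 12 fell among 26484 genes tested, and with coverage 112 rose and 47 fell. With single libraries left out 16 to 53 rose and 4 to 16 fell. The members past the threshold were 6 with the block, 0 with no filter, 5 with coverage and 0 to 2 with a library left out. With the block 1 neighbour rose, Gimap1os, and 2 interferon-inducible GTPases did, Gbp2 and Iigp1; with a library left out, 0 to 1 of these GTPases and 0 to 0 of the resting T cell genes rose. Among the marker genes the block added Tnfrsf18 and Klrd1 (adjusted p = 0.033 for both). It changed no other call among the neighbours, the related lists and the markers. Median-ratio scaling gave 85 rises and 26 falls and put the median of all genes at 0.00. With 3 libraries a group and no read counts, small differences such as that of Gimap9 are limited by the spread between libraries. The causes of these shifts were not tested.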
